A study of Rattus norvegicus with 12 samples.

Results

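The hypoxia-inducible factor (HIF) system was examined in the central nucleus of the amygdala (CeA) of rats exposed to chronic intermittent ethanol (CIE) vapor. It was described by 10 genes of the 37209 listed, found by their symbols. They are the alpha subunit genes *Hif3a*, *Hif1a* and *Epas1*, their partner *Arnt*, the oxygen-sensing hydroxylases *Egln1*, *Egln2* and *Egln3*, the ubiquitin ligase component *Vhl*, and the HIF targets *Bnip3* and *Adm*. *Hif3a* was chosen by its difference between the groups in these same rats, so its values are a description with no test. The other 9 genes were chosen from their place in the pathway, to ask whether *Hif3a* was higher alone, and with earlier results of these counts known.

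RNA-Seq libraries were made from the CeA of 12 male wild type Sprague Dawley rats aged 14 to 16 weeks, with 1 library per rat. The CIE group of 6 rats (numbered 1 to 6) had chronic intermittent alcohol exposure, and the Control group of 6 rats (numbered 7 to 12) breathed air. All CeA samples were taken immediately after the last exposure, so the values describe intoxicated and not withdrawn CIE rats. The numbers do not pair rats, and an effect that follows their order cannot be told apart from CIE. Total counts were 61978486 to 78441691 in the CIE group and 39082548 (rat 11) to 95647601 (rat 8) in the Control group. All 9 marker genes of CeA neurons were detected, including *Prkcd* and *Sst*, and their summed level was 548 to 1792 CPM in the CIE group against 679 to 2235 CPM in the Control group, where CPM is the count scaled to a common library total. Most of that sum was *Penk*, and 3 of the 9 (*Crh*, *Nts* and *Tac2*) were lower in the CIE group at nominal p below 0.05, where 4.31% of all genes were. With bulk CeA tissue, fewer cells of a type and less RNA per cell cannot be told apart.

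HIF is a pair of proteins, an alpha subunit and the stable partner encoded by *Arnt*, that binds DNA and switches on genes for glycolysis, glucose transport, vessel growth and mitochondrial turnover when oxygen is short. With enough oxygen, the *Egln* hydroxylases mark the alpha subunits and the product of *Vhl* directs them to destruction, so the activity of *Hif1a* and *Epas1* is set mainly at the protein and only partly at the mRNA. *Hif3a* stands apart from the other alpha subunits, since several of its splice forms lack a strong activation domain and can restrain the others, and its own mRNA is known to increase in hypoxia.

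HIF binds a short core sequence, ACGTG or GCGTG on either strand, which was searched in promoters taken from RefSeq on the GRCr8 build (250 bases before to 50 bases after each annotated start). A match describes the letters only and is not evidence of a bound site, and the core ACGTG overlaps the E-box CACGTG used by other factors. The annotated *Hif3a* promoters differed in this respect. The upstream promoter, on the minus strand at chr1:86877789-86878088, held 2 cores, at positions -238 and -194 from the start, and the downstream promoter, on the minus strand at chr1:86872056-86872355, held none. *Bnip3*, a HIF target, is shown for comparison with 4 cores, at positions -108, -99, -98 and -90, on the minus strand at chr1:203154913-203155212. The cores at -99 and -98 overlap, as the readings of the same CACGTG on either strand, and are not separate sites. Cores are in capitals and all other bases in lower case, and each sequence reads 5′ to 3′ along the gene.
Hif3a upstream promoter: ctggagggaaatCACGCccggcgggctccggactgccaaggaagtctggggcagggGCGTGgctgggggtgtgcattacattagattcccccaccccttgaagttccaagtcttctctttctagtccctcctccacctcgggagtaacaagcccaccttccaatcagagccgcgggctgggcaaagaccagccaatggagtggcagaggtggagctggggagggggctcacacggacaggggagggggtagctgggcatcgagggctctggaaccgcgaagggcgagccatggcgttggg
Hif3a downstream promoter: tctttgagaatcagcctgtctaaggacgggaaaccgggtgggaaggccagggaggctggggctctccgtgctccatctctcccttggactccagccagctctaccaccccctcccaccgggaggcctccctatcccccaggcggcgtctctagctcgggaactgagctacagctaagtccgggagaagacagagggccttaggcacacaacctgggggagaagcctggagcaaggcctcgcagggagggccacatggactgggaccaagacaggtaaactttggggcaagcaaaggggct
Bnip3 promoter: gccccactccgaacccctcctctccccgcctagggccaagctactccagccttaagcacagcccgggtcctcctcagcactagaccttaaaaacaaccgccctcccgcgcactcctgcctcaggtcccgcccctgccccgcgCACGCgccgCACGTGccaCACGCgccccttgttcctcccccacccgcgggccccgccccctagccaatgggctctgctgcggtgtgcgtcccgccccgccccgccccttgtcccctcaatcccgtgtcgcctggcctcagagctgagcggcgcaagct
The core was common in this window. It was found in 41.6% of 33469 promoters, or in at least 1 promoter of 44.6% of 27457 genes, and in 5 of the 10 HIF system genes (*Hif3a*, *Hif1a*, *Arnt*, *Egln1* and *Bnip3*). Of the 28 HIF target genes matched in the promoter table, from the list described further on, 23 (82.1%) held a core, and of 11 matched genes of the wider HIF machinery 6 (54.5%) did. Of 15 matched genes of the glucocorticoid-induced list, also described further on, 9 (60.0%) held a core. *Hif3a* held the core in its upstream promoter only. It shared this with most listed targets, but also with most of the glucocorticoid-induced list and with 44.6% of all genes. The search does not tell which *Hif3a* promoter was used, since the counts are per gene.

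*Hif3a* was 6.02 times as high in the CIE as in the Control group, and none of the other 9 genes of the system passed 5% FDR. FDR is the p of edgeR's quasi-likelihood test adjusted over all 20944 genes tested. In the CIE rats *Hif3a* lay between 3.65 and 7.72 CPM with a median of 7.23, and in the Control rats between 0.336 and 1.63 CPM with a median of 1.21. Every CIE rat was above every Control rat, and the CIE rat closest to the Control range (rat 3, 3.65 CPM) stood apart from the other CIE rats, which lay between 6.55 and 7.72 CPM. The group means were 6.66 ± 1.53 CPM (SD, n = 6) for CIE and 1.11 ± 0.492 CPM (SD, n = 6) for Control. Their ratio was 6.02, and the log2 fold change fitted by edgeR was 2.57 (SE 0.30), with a 95% interval of 3.80-fold to 9.28-fold. The interval is a description too, since it does not allow for the choice of *Hif3a* by this same difference.

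The *Hif3a* counts were modest. They ran from 236 (rat 3) to 598 (rat 6) in the CIE libraries and from 13 (rat 11) to 122 (rat 12) in the Control libraries. Rat 11, with the lowest *Hif3a*, also had the library with the lowest total count. Without rat 11 the log2 fold change was 2.40, the lowest value of all the alternatives run. The spread among the Control rats was wide relative to their mean, with a coefficient of variation of 44.4% against 23.0% in the CIE group. In the RefSeq annotation no gene overlapped *Hif3a*, and the adjacent *Ppp5c*, a protein phosphatase gene, had 96.5 CPM in CIE and 99.1 CPM in Control rats on average (log2 fold change -0.04, SE 0.08, edgeR FDR 0.933). The other neighbour, *Cgm4*, was too low to be tested.

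**Figure D1:**
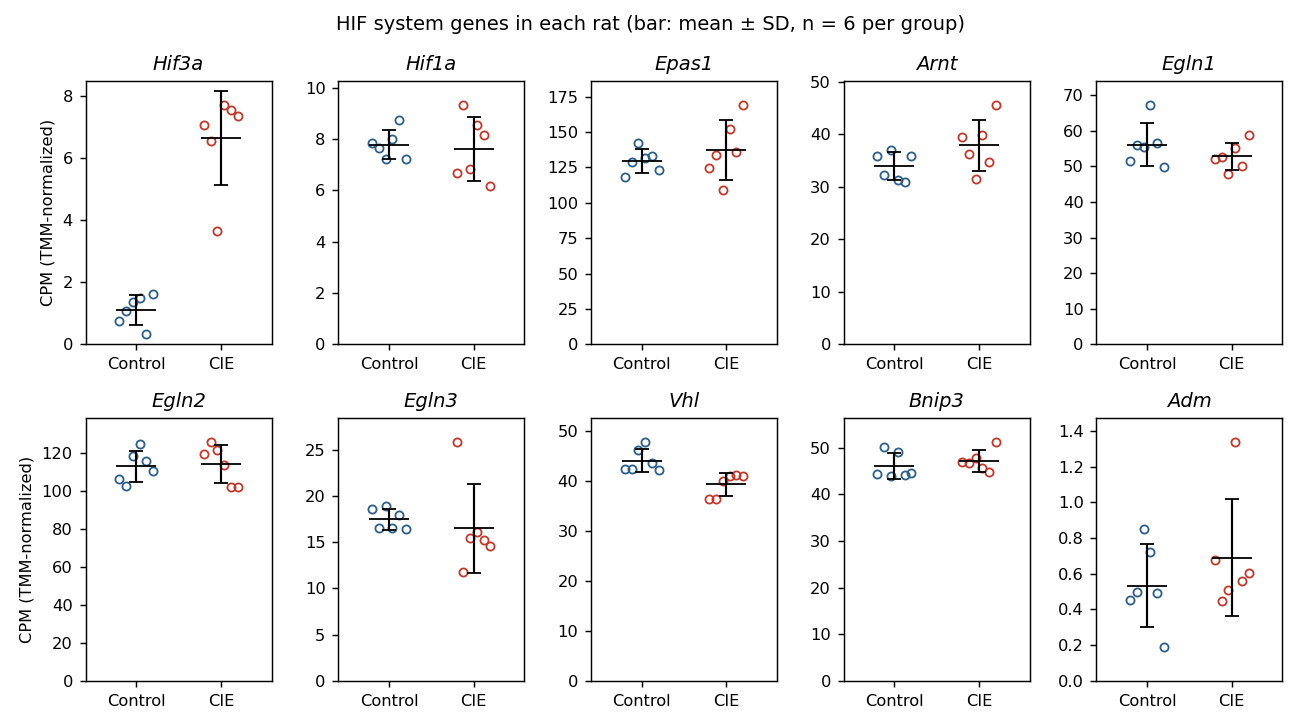
TMM-normalized CPM (y axis, from 0, with its own scale in each panel) of the 10 HIF system genes in each Control and CIE rat; each circle is 1 rat and the bars are the mean ± SD of 6 rats. *Hif3a* separates the groups (0.336 to 1.63 against 3.65 to 7.72 CPM), *Vhl* separates them narrowly in the other direction (42.3 to 47.9 against 36.3 to 41.1 CPM), and the other 8 genes overlap.

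The other alpha subunit genes overlapped between the groups. *Hif1a*, the most widely studied HIF alpha subunit, lay between 6.15 and 9.33 CPM (median 7.50) in the CIE rats and between 7.21 and 8.73 CPM (median 7.75) in the Control rats. The CIE rats fell on both sides of the Control range, with 1 above and 3 below all Control rats, and the CIE group was more spread (coefficient of variation 16.4% against 7.31%). The log2 fold change of *Hif1a* was -0.03 (SE 0.11, 95% interval -0.27 to 0.21, edgeR FDR 0.965), and its sign turned to 0.02 under limma-voom and to 0.05 with an endothelial marker score (the mean log2 CPM of 12 endothelial markers in each rat) in the model.

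*Epas1*, the alpha subunit gene typical of endothelial cells, lay between 109 and 169 CPM (median 135) in the CIE rats and between 118 and 143 CPM (median 130.3) in the Control rats. The groups overlapped, with 2 CIE rats above and 1 below all Control rats. The fitted log2 fold change was 0.08 (SE 0.09, 95% interval -0.12 to 0.28, edgeR FDR 0.866). Endothelial markers, as a list, had a median log2 fold change of -0.25 in the same rats. With their score in the model, *Epas1* had a log2 fold change of 0.29 (SE 0.10, edgeR FDR 0.313), past the nominal threshold (p below 0.05 without adjustment).

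*Arnt*, whose product pairs with every HIF alpha subunit, lay between 31.6 and 45.6 CPM (median 37.8) in the CIE rats and between 31.0 and 37.1 CPM (median 34.1) in the Control rats. Of the CIE rats, 3 of 6 were above all Control rats and none was below. *Arnt* had a log2 fold change of 0.16 (SE 0.09, 95% interval -0.02 to 0.35, edgeR FDR 0.667) and did not pass the nominal threshold either.

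The oxygen sensors also overlapped between the groups. *Egln1*, which encodes the main hydroxylase acting on HIF in normal oxygen, lay between 47.8 and 58.9 CPM (median 52.4) in the CIE rats and between 49.9 and 67.3 CPM (median 55.7) in the Control rats. Its log2 fold change was -0.09 (SE 0.08, 95% interval -0.25 to 0.07, edgeR FDR 0.821), and the sign turned to 0.11 with the endothelial score and to 0.04 with an oligodendrocyte score in the model.

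*Egln2*, which encodes a related hydroxylase, lay between 102.1 and 126 CPM (median 117) in the CIE rats and between 102.5 and 125 CPM (median 113) in the Control rats. The ranges were nearly the same, and the log2 fold change was 0.02 (SE 0.07, 95% interval -0.14 to 0.17, edgeR FDR 0.972). *Egln2* overlaps *Cyp2t1* in the RefSeq annotation, and *Cyp2t1* had a log2 fold change of -0.10 (SE 0.15).

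*Egln3*, a hydroxylase gene that is itself induced by HIF, lay between 11.7 and 25.9 CPM (median 15.4) in the CIE rats and between 16.4 and 18.9 CPM (median 17.2) in the Control rats. The groups would not have overlapped but for rat 1, since 5 of 6 CIE rats were below all Control rats and rat 1 was above all of them at 25.9 CPM. Its log2 fold change was -0.08 (SE 0.15, 95% interval -0.40 to 0.23, edgeR FDR 0.924) with rat 1, and -0.26 (SE 0.09, edgeR FDR 0.512), past the nominal threshold, without it.

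*Vhl* was the only other gene of the system whose groups did not overlap, and it was slightly lower in the CIE group. It lay between 36.3 and 41.1 CPM (median 40.5) in the CIE rats and between 42.3 and 47.9 CPM (median 43.0) in the Control rats, and all 6 CIE rats lay below the lowest Control rat. The means were 39.3 ± 2.34 CPM (SD, n = 6) for CIE and 44.1 ± 2.37 CPM (SD, n = 6) for Control, a log2 fold change of -0.17 (SE 0.06, 95% interval -0.29 to -0.04). It passed the nominal threshold but not 5% FDR (edgeR FDR 0.402), and it ranked 625 of 20944 genes by p. *Vhl* did not pass the nominal threshold with the oligodendrocyte score in the model, where its log2 fold change was -0.15 (SE 0.08), or with the endothelial score, where it was -0.09 (SE 0.08).

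Both targets in the set overlapped between the groups. *Bnip3*, a mitophagy receptor gene, lay between 44.7 and 51.3 CPM (median 46.8) in the CIE rats and between 44.0 and 50.1 CPM (median 44.5) in the Control rats. Its promoter cores, printed above, thus went with a log2 fold change of 0.03 (SE 0.06, 95% interval -0.09 to 0.15, edgeR FDR 0.919). *Bnip3* was measured more tightly than any other gene of the system, and its interval ran up to 1.11-fold.

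*Adm*, the gene of the vasodilator peptide adrenomedullin, was scarce, with 14 to 90 counts per rat. It lay between 0.450 and 1.34 CPM (median 0.583) in the CIE rats and between 0.187 and 0.849 CPM (median 0.495) in the Control rats. The highest value, in rat 4, stood apart from the other CIE rats, and the groups overlapped. Its log2 fold change was 0.37 (SE 0.36, edgeR FDR 0.843), and its 95% interval reached up to 2.21-fold. The spread between rats was wide, with a coefficient of variation of 47.4% in the CIE and 43.2% in the Control group. Without rat 4 the log2 fold change of *Adm* was 0.07, and with the endothelial score in the model it was 1.12.

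Counted together, none of the 9 genes beside *Hif3a* passed 5% FDR in edgeR, where 0.363% of all 20944 genes tested did (76 genes). None passed it in DESeq2 or in limma-voom, where 265 and 234 of all genes did. At a nominal p below 0.05 in edgeR, 1 of 9 passed (*Vhl*, lower), where 8.31% of all genes passed and 4.31% did so lower in CIE. The groups did not overlap for 1 of 9, where 0.893% of all genes had groups that did not overlap. Each of these counts rests on *Vhl*. Of the 9 genes, 5 had positive and 4 negative log2 fold changes, with a median of 0.02 against 0.00 over all genes tested. For 8 of the 9, *Adm* being the exception, the 95% interval lay within 1.5-fold in either direction.

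**Figure D2:**
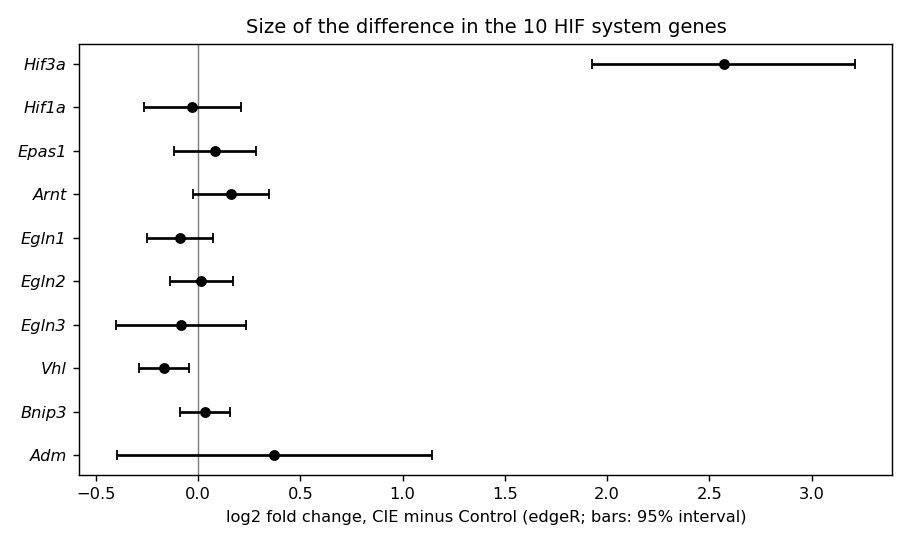
Log2 fold change, CIE minus Control (x axis), of the 10 HIF system genes with the 95% interval from edgeR; the vertical line marks 0. *Hif3a*, chosen for this difference and shown as a description, lies at 2.57, and of the other 9 genes *Adm* has the widest interval (-0.40 to 1.14) and that of *Vhl* (-0.29 to -0.04) lies below 0.

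In the wider HIF machinery no gene passed 5% FDR. This list holds 13 genes for the second partner subunit (*Arnt2*), the asparaginyl hydroxylase that blunts HIF activity (*Hif1an*), the *Vhl* ligase complex (*Elob*, *Eloc*, *Cul2* and *Rbx1*), the coactivators *Crebbp* and *Ep300*, and regulators of these. All 13 were tested, with a median log2 fold change of -0.02, and none passed 5% FDR in edgeR, DESeq2 or limma-voom. In edgeR 2 (15.4%) passed the nominal threshold, where 0.363% of all genes passed 5% FDR and 8.31% the nominal threshold. In DESeq2 2 and in limma-voom 3 of the 13 passed the nominal threshold, where 1929 and 3596 of all 20944 genes did. At 5% FDR, 265 of all genes passed in DESeq2 and 234 in limma-voom. *Siah1*, a ubiquitin ligase gene that acts on the hydroxylases, had 29.5 CPM in CIE and 26.4 CPM in Control rats on average (log2 fold change 0.16, SE 0.06, edgeR FDR 0.441), with 5 of 6 CIE rats above all Control rats. *Limd1*, a scaffold gene that brings *Vhl* and the hydroxylases together, had 14.0 CPM in CIE and 16.3 CPM in Control rats on average (log2 fold change -0.22, SE 0.09, edgeR FDR 0.484), with 5 of 6 CIE rats below all Control rats. Each therefore overlapped through 1 rat.

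Genes that HIF is known to induce had differences in both directions, none past 5% FDR in edgeR. Of 37 listed targets 35 were tested, since *Epo* (30 counts over all rats) and *Nos2* (113 counts) were too scarce. At the nominal threshold 8 passed (22.9%, with 5 higher and 3 lower), where 8.31% of all genes passed, 4% higher and 4.31% lower. The median log2 fold change of the 35 was -0.05, with 16 positive and 19 negative values from -0.98 to 0.43. In DESeq2 and in limma-voom 2 targets passed 5% FDR, *Ddit4* and *Lox*, in opposite directions. Of all 20944 genes tested, 265 passed it in DESeq2 and 234 in limma-voom.

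*Ddit4*, an inhibitor of mTORC1 signalling that is induced by hypoxia and by glucocorticoids, lay between 59.2 and 93.2 CPM (median 71.8) in the CIE rats and between 46.1 and 62.5 CPM (median 51.7) in the Control rats. It was the target with the largest positive difference (log2 fold change 0.43, SE 0.11, edgeR FDR 0.169), and 5 of 6 CIE rats were above all Control rats. *Lox*, which encodes the enzyme that cross-links collagen, lay between 0.523 and 1.54 CPM (median 0.983) in the CIE rats and between 1.63 and 2.12 CPM (median 2.02) in the Control rats. All 6 CIE rats lay below the lowest Control rat for *Lox* (log2 fold change -0.98, SE 0.23, edgeR FDR 0.123). With 1 rat left out, the edgeR FDR of *Lox* ran from 0.0298 (without rat 6) to 0.269 (without rat 9). Without rat 6, 154 of all genes passed 5% FDR, against 76 with all rats. Of 5 fibroblast markers 1 (*Col1a1*) was lower at 5% FDR and 3 at nominal p below 0.05 in the same samples. Over all genes, 0.363% passed 5% FDR and 4.31% were lower at the nominal threshold. The markers ran from *Col1a1* (log2 fold change -1.04) to *Dcn* (-0.01). Their summed level was 18.8 to 49.8 CPM in the CIE rats against 47.0 to 68.5 CPM in the Control rats. The part of these markers in the *Lox* difference was not tested.

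The prolyl hydroxylase genes that act on collagen differed in opposite directions. *P4ha2* had 33.3 CPM in CIE and 27.1 CPM in Control rats on average (log2 fold change 0.30, SE 0.09, edgeR FDR 0.327). *P4ha1* had 47.7 CPM in CIE and 54.1 CPM in Control rats on average (log2 fold change -0.18, SE 0.06, edgeR FDR 0.416). *Slc2a1*, the glucose transporter gene of brain endothelium, had 118 CPM in CIE and 104 CPM in Control rats on average (log2 fold change 0.19, SE 0.07, edgeR FDR 0.492). With the endothelial score in the model its log2 fold change was 0.34 (SE 0.08, edgeR FDR 0.181), past the nominal threshold. In that fit *P4ha2* (0.16, SE 0.12) and *P4ha1* (-0.11, SE 0.09) did not pass the nominal threshold, and 2518 of all 20944 genes did.

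The remaining targets at nominal p below 0.05, named after their values were seen, were *Pdk1* (log2 fold change 0.14, SE 0.06), which restrains pyruvate entry into mitochondria, the histone demethylase gene *Kdm3a* (0.19, SE 0.08) and the lactate exporter gene *Slc16a3* (-0.67, SE 0.29). Of the glycolytic targets, 3 were also named after their values were seen, and none passed the nominal threshold. Their log2 fold changes were -0.15 (SE 0.09) for *Ldha*, -0.05 (SE 0.07) for *Pgk1* and -0.12 (SE 0.08) for *Aldoa*, each encoding an enzyme of glycolysis or lactate formation. The other listed genes of glycolytic enzymes had values in both directions, from -0.13 (SE 0.08) for *Tpi1* to 0.10 (SE 0.09) for *Pfkl*. *Vegfa*, the vascular growth factor gene, had 86.7 CPM in CIE and 97.3 CPM in Control rats on average (-0.17, SE 0.08, edgeR FDR 0.605), with 4 of 6 CIE rats below all Control rats.

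*Hif3a* also belongs to the bHLH-PAS family of transcription factors, which holds the dioxin receptor gene *Ahr*, the clock genes *Clock* and *Bmal1* and neuronal members such as *Npas4*. All 11 other listed members outside the HIF system were tested. None passed 5% FDR or the nominal threshold in edgeR, DESeq2 or limma-voom. Over all 20944 genes tested, the nominal threshold was passed by 8.31% in edgeR, by 1929 genes in DESeq2 and by 3596 in limma-voom. Their log2 fold changes ran from -1.01 (*Sim1*, SE 0.61) to 0.46 (*Ahrr*, SE 0.34), with a median of 0.22, and both of these genes were scarce.

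Genes known to be induced by glucocorticoids differed mostly upwards. Of 16 tested genes, 5 rose and 1 fell at 5% FDR, where 0.363% of all genes passed. At the nominal threshold 11 were higher and 1 lower, where 4% of all genes were higher and 4.31% lower, with a median log2 fold change of 0.57. This list was drawn up with results of these counts known and is not independent evidence of its direction. The 5 that rose were *Zbtb16* (log2 fold change 1.45, SE 0.20), *Sgk1* (1.22, SE 0.22), *Sult1a1* (0.71, SE 0.10), *Klf15* (0.66, SE 0.09) and *Tsc22d3* (0.57, SE 0.09), which encode in this order a transcription factor, a kinase, a sulfotransferase, a transcription factor and an anti-inflammatory leucine zipper protein. The gene that fell was the cell cycle inhibitor gene *Cdkn1a* (-0.71, SE 0.11). With the endothelial score in the model *Sgk1* alone of these 6 passed 5% FDR, where 8 of all 20944 genes did, against 76 without the score. The log2 fold changes in that fit were 1.55 (SE 0.26) for *Zbtb16*, 0.72 (SE 0.14) for *Sult1a1*, 0.66 (SE 0.13) for *Klf15*, 0.63 (SE 0.13) for *Tsc22d3* and -0.55 (SE 0.14) for *Cdkn1a*. *Sgk1* lost the call in 9 of the 12 fits that left out 1 rat. Over these 12 fits 34 to 154 of all genes passed 5% FDR.

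**Figure D3:**
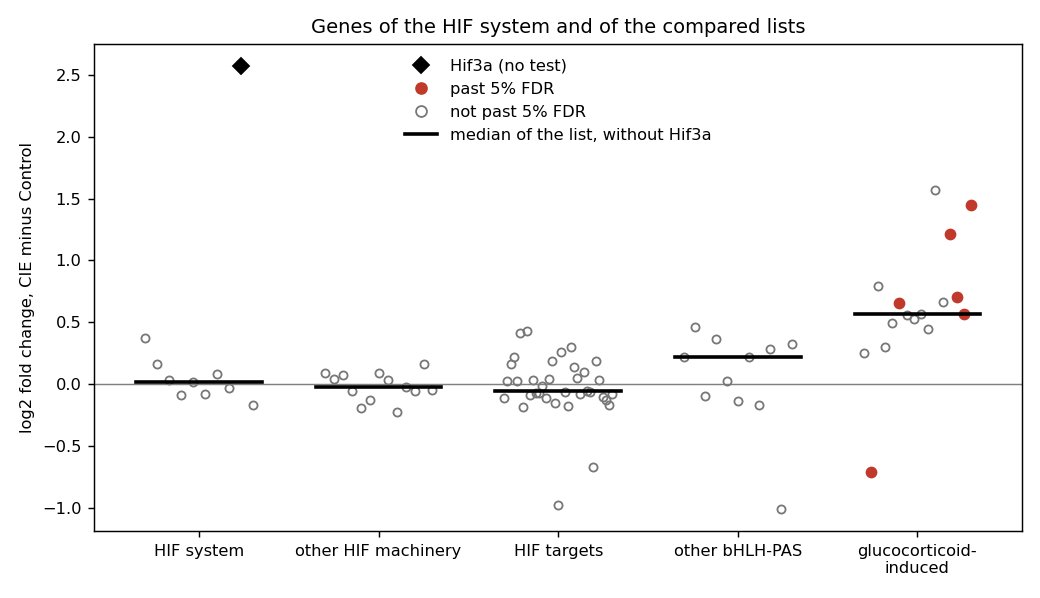
Log2 fold change, CIE minus Control (y axis), of each tested gene of the HIF system and of 4 compared lists; red points passed 5% FDR in edgeR, open points did not, the black diamond is *Hif3a*, shown with no test, and the horizontal bars are medians without *Hif3a*. The medians are 0.02 for the HIF system, -0.02 for the machinery, -0.05 for the targets, 0.22 for bHLH-PAS genes and 0.57 for glucocorticoid-induced genes, and *Hif3a* lies at 2.57.

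Across the 12 rats, *Hif3a* was closest to *Arnt* and *Vhl* among the genes of its system, in opposite directions. These correlations of log2 CPM are a description, since all rats share the difference between the groups and genes of 1 rat share a library and its depth. Pearson's r with *Hif3a* was 0.61 for *Arnt*, 0.33 for *Epas1*, -0.20 for *Hif1a*, 0.29 for *Bnip3* and -0.63 for *Vhl* (n = 12). After the group means were removed, r was 0.47 for *Arnt*, 0.33 for *Epas1*, -0.20 for *Hif1a*, 0.18 for *Bnip3* and 0.18 for *Vhl*. The negative value of *Vhl* was thus not seen within the groups. Rats 3 and 11, with the lowest *Hif3a* of their groups, also had the lowest *Arnt* of their groups (31.6 and 31.0 CPM). The within-group value of *Arnt* without these rats was not computed.

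The gene most like *Hif3a* over the 12 rats was *Sult1a1*, with r = 0.96. *Sult1a1* lay between 7.0 and 8.62 CPM (median 8.18) in the CIE rats and between 4.03 and 5.56 CPM (median 4.95) in the Control rats, with no overlap. It was followed by *LOC102551865* (r = 0.93), *LOC102547573* (r = 0.92), *Tp53bp2* (r = 0.92) and *Fastkd3* (r = 0.92). *Tp53bp2*, which encodes a partner of the tumour suppressor p53, had 70.0 CPM in CIE against 49.4 CPM in Control rats (log2 fold change 0.50, SE 0.07). Since *Hif3a* separates the groups, genes chosen by their likeness to it over all rats had to differ between the groups too, and these differences are given with no test. No gene of the HIF system was among these 5. That absence adds nothing to the small group differences given above, since this ranking favours genes that separate the groups.

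Once the group means were removed, the 5 genes most like *Hif3a* were other ones, namely *Lipc* (r = 0.95), *Eed* (r = 0.91), *LOC100910979* (r = 0.91), *LOC103693274* (r = 0.90) and *LOC102548590* (r = 0.87), and none differed between the groups at 5% FDR. Of these, 4 were very scarce, such as *Lipc* with 0.351 CPM in CIE and 0.218 CPM in Control rats on average, and *Eed* was low in rat 11, the rat with the lowest *Hif3a*.

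**Figure D4:**
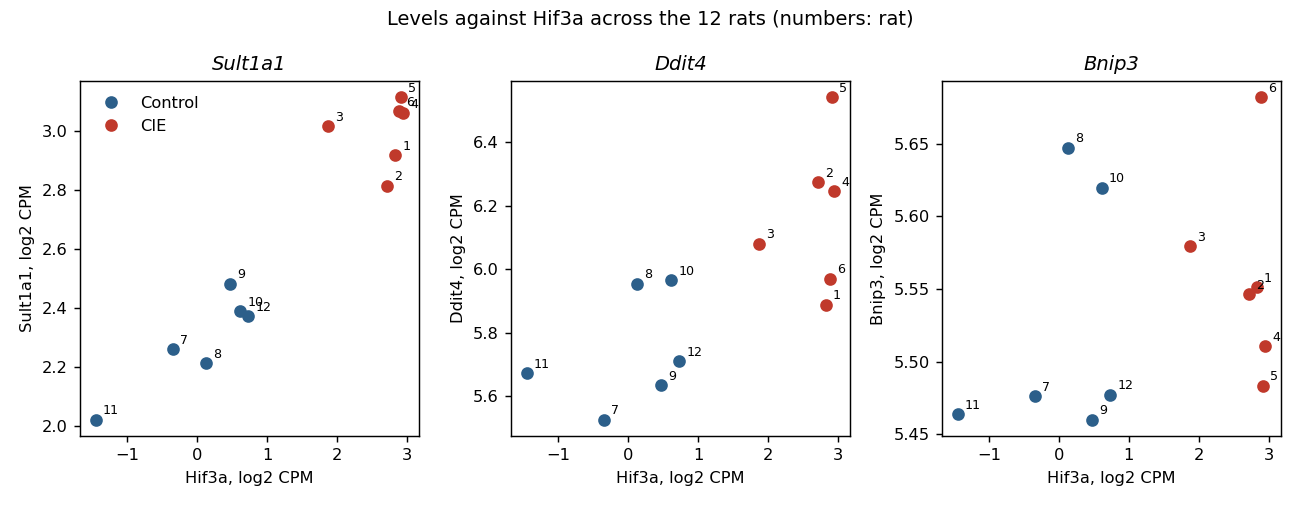
Log2 CPM of *Sult1a1*, *Ddit4* and *Bnip3* (y axes, not from 0) against log2 CPM of *Hif3a* (x axis) in 12 rats, numbered as in the text, with Control in blue and CIE in red. *Sult1a1* separates the groups as *Hif3a* does (r = 0.96), *Ddit4* does so with overlap, and *Bnip3* shows both groups over the same range (r = 0.29).

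Markers of several cell types differed between the same groups, and these values stand beside the *Hif3a* difference. Over all genes, 0.363% passed 5% FDR, and 4.31% were lower and 4% higher at the nominal threshold. Of 12 endothelial markers, 1 (*Kdr*) was lower at 5% FDR and 5 were lower and 1 higher at nominal p below 0.05, with a summed level of 306 to 393 CPM in the CIE rats and 334 to 427 CPM in the Control rats. Of 6 tested mural cell markers 1 (*Kcnj8*) was lower at 5% FDR and 4 at the nominal threshold (83.5 to 132 against 115 to 133 CPM), and *Myh11* was listed at 0 in every rat. Of 10 oligodendrocyte markers 9 were lower at the nominal threshold (5718 to 13866 against 8759 to 16399 CPM). Of 10 astrocyte markers 2 were higher and 2 lower at that threshold (2406 to 2934 against 2334 to 2720 CPM), 1 of 8 neuronal markers was lower (3289 to 3955 against 3617 to 4060 CPM) and 1 of 6 microglial markers was lower (235 to 307 against 272 to 313 CPM).

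Erythroid genes, a sign of blood in the tissue, were lower in the CIE group. All 3 tested were lower at the nominal threshold and 2 at 5% FDR, where 4.31% of all genes were lower and 0.363% differed at these thresholds, with a summed level of 29.6 to 94.4 CPM in the CIE rats against 127 to 220 CPM in the Control rats. The *Hif3a* difference had a log2 fold change of 2.64 with the endothelial score and 2.65 with the oligodendrocyte score in the model, against 2.57 without either. The part of blood in the *Hif3a* difference was not tested.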

How the data were processed

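Poly-A RNA-Seq was done on CeA samples of 12 rats. BWA was used by the authors for mapping to Rnor_6.0 and HTSeq for counting, and the deposited table holds raw counts per gene, 1 column per rat. The gene annotation and the strand and overlap settings are not given in the sources used here, and without strand, reads of a gene and an overlapping antisense gene cannot be told apart. The submitters' processing notes name DESeq2 1.26 for the authors' own comparison, which was not used here.

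The analysis used edgeR 4.0.16 in R 4.3.3, and figures were drawn in Python 3.11.15 with matplotlib 3.10.9. Of 37209 genes, 7757 had 0 counts in every rat and 20944 passed filterByExpr (minimum count 10), among them all 10 HIF system genes. Groups were taken from the treatment label and compared with the quasi-likelihood test of edgeR after TMM normalization, two-sided and without covariates. FDR is the Benjamini-Hochberg adjusted p over all tested genes, "nominal" means p below 0.05 without adjustment, and CPM is TMM-normalized. Log2 fold changes are CIE minus Control. SE is the log2 fold change over the root of the F statistic, and the 95% interval uses it. Log2 CPM for correlations used a prior count of 2. The script was tested on simulated data.

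The members and lists were chosen with earlier results of these data known. Genes named are all 10 members, list genes past 5% FDR, up to 5 per list with the smallest p among those at nominal p below 0.05, and the 5 most correlated with *Hif3a* on each scale. Others are named as chosen after their values were seen. Marker lists are given by counts and ranges. The erythroid list held 5 genes, of which 2 could not be matched by symbol. Levels were not compared between genes, since no transcript lengths were used.

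Alternatives were the DESeq2 Wald test (DESeq2 1.42.0), limma-voom (limma 3.58.1) with sample quality weights, scaling by DESeq2 size factors or by library size alone, leaving genes unfiltered or keeping those with 10 or more counts in all rats, an endothelial or an oligodendrocyte marker score as a covariate, and leaving out each of the 12 rats. The count of glucocorticoid-induced genes, the count of HIF system and list genes past 5% FDR and the values of genes outside the HIF system were added to these alternatives after the data were seen. Gene neighbours and promoters came from RefSeq on GRCr8, matched by symbol, and no coordinate was transferred to Rnor_6.0.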

Additional observations from a re-analysis of the deposited data

Results flagged for a closer look

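In 5 of 64 groups of 6 rats examined (both groups of 32 named genes), 1 rat stood far from the others by Dixon's test, which chance alone gives in about 1 in 20 groups. *Hif3a* in CIE rat 3 was 3.65 CPM, where the other CIE rats lay between 6.55 and 7.72 CPM, and this value was still above every Control rat. *Egln3* in CIE rat 1 was 25.9 CPM, where the others lay between 11.7 and 16.1 CPM. *Adm* in CIE rat 4 was 1.34 CPM, where the others lay between 0.450 and 0.677 CPM. In Control rat 11, *LOC102551865* was 0.181 CPM, where the others lay between 0.417 and 0.489 CPM, and *Eed* was 17.3 CPM, where the others lay between 21.1 and 22.3 CPM. Both of these genes were named for their correlation with *Hif3a*, whose lowest value was also in Control rat 11, so they were not chosen independently of that rat.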

How the results depend on the processing

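The log2 fold change of *Hif3a* lay between 2.40 (without Control rat 11) and 2.75 (limma-voom) over the 20 alternatives. Its sign is no test, since *Hif3a* was chosen for this difference and its groups did not overlap. The count of all genes past 5% FDR was 76, and it was 265 with DESeq2, 234 with limma-voom, 8 with the endothelial score and 26 with the oligodendrocyte score as a covariate, and it ranged from 34 (rat 9 left out) to 154 (rat 6 left out) over fits that each lacked 1 rat. Of genes at nominal p below 0.05, 48.1% were higher in CIE with TMM and 60.3% with library size only, and no scaling moved the median log2 fold change of all genes by over 0.1. Besides *Hif3a*, 1 gene of the system passed the nominal threshold (*Vhl*), against 2 with the endothelial score (*Adm* and *Epas1*), 2 with the oligodendrocyte score (*Arnt* and *Epas1*) and 1 to 2 with 1 rat left out (*Egln3* joined without rat 1 and *Arnt* without rat 3). Of the target and machinery genes 10 passed, and 6 (rat 1 left out) to 17 (rat 3 left out) with 1 rat fewer. Over all 20944 genes tested, 1740 passed the nominal threshold, against 2518 with the endothelial and 2253 with the oligodendrocyte score. It was passed by 1409 of 21152 genes without rat 1 and by 2811 of 21165 without rat 3. Of the HIF system, machinery and target genes other than *Hif3a*, 0 passed 5% FDR, against 2 with DESeq2, 2 with limma-voom and 0 to 1 with 1 rat fewer (*Lox*, rat 6 left out). The glucocorticoid-induced count of 6 was 10 with limma-voom, 1 with the endothelial score and 4 to 8 with 1 rat fewer. Signs near 0 turned for *Hif1a* (0.024 with limma-voom, 0.047 with the endothelial score, and -0.096 to 0.026 with 1 rat fewer), *Egln1* (0.11 with the endothelial and 0.041 with the oligodendrocyte score), *Egln2* (-0.048 with the oligodendrocyte score, and -0.015 to 0.050 with 1 rat fewer), *LOC100910979* (0.090 with the endothelial score) and *LOC103693274* (-0.031 to 0.28 with 1 rat fewer), and the cause was not tested. No paired analysis was possible because the groups share no rat numbers in the labels. The share of the spread that counting error gives the scarce genes, such as *Adm*, was not tested.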
